A study of Caenorhabditis elegans with 14 samples.

Results

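The difference between the skpo-1 mutant's and the N2 wild type's response to the pathogen Enterococcus faecalis was measured for every gene in whole worms. It was the response of skpo-1 (E. faecalis over E. coli, log2) minus the response of N2, fitted over all 14 RNA-seq libraries of the study, so no library was left aside. A positive difference means a response further up, or less far down, in skpo-1 than in N2. A negative one means the opposite. The 4 groups were skpo-1 on E. faecalis OG1RF (4 libraries), skpo-1 on E. coli OP50 (3), N2 on E. faecalis OG1RF (3) and N2 on E. coli OP50 (4). The mutant was strain GF89 with the deletion allele ok1640 of skpo-1 on chromosome II, and 1 mutant strain was used. L4 larvae of both genotypes spent 16 h on the bacteria and were collected as day 1 adults. The pathogen grew on brain heart infusion agar with gentamycin, and the worms were reared with E. coli on nematode growth agar. The medium of the E. coli exposure plates is not given in the sources used here, so any difference in plate cannot be told apart from the bacterium. The labels call the replicates biological.

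SKPO-1 is a heme peroxidase with ShkT domains that acts in the hypodermis, the tissue that secretes the collagen cuticle, and worms without it are more sensitive to E. faecalis. Intestinal cells answer ingested pathogens with secreted lectins, lysozymes, saposin-like peptides and proteases, and with detoxification enzymes. A difference between responses asks whether such a program is engaged to another degree in the mutant. It can come from the level on the pathogen, from the level on E. coli, or from both, so all 4 groups are given for each gene.

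The libraries held 15174830 to 36682565 counts on genes, and 15685 of 21982 listed genes passed the filter on low counts. Every pair of replicates differed beyond the sampling noise of its counts, so each library was 1 replicate. The second replicate of N2 on E. coli stood apart from its group. Its chi-square per degree of freedom against the other 3 was 328 to 387, against 7.23 to 44.9 among those 3. Vitellogenins, the yolk proteins made by the adult intestine, were present in every library and took 3.11% of its counts and 10.2 to 12.9% of theirs. Replicate 1 of N2 on E. faecalis held 10.3% vitellogenin, and its group's other libraries held 6.74% and 2.95%. The share was 3.49 to 10.2% in skpo-1 on E. faecalis and 10.8 to 14.3% in skpo-1 on E. coli. Several results that rest on these libraries are therefore also given without them.

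The mutated gene, skpo-1 (WBGene00009897, WBcel235 chromosome II, 8400299 to 8404848, minus strand), checked the labels. Its level in CPM (counts scaled to the size of the library) was 1.78, 1.62, 2.26 and 1.65 in skpo-1 on E. faecalis and 2.46, 2.35 and 2.66 in skpo-1 on E. coli. It was 199, 126 and 112 CPM in N2 on E. faecalis and 292, 283, 301 and 314 CPM in N2 on E. coli. Every mutant library lay far below every N2 library. In N2 the gene fell on E. faecalis by 1.03 on the log2 scale (SE 0.18, adjusted P = 0.0012), where every adjusted P is a Benjamini-Hochberg value over all genes tested in edgeR. The difference between responses at this gene was 0.58 (SE 0.27, adjusted P = 0.652) and compares a residual level in the deletion strain with a working gene.

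No gene was called for the difference between responses at an adjusted P below 0.05 and at least 2-fold (0 of 15685, 0%) by the quasi-likelihood test of edgeR. At an unadjusted P below 0.05 there were 1216 genes (7.75%). Of these, 757 were negative (4.83% of tested genes) and 459 were positive (2.93%). The 1216 became 656 without replicate 3 of N2 on E. faecalis and 2438 without its replicate 1, and the negative share of 62.3% ran from 49.7% to 75.2% with a library left out. The smallest adjusted P was 0.0968, reached by fmo-2 and T22F3.11, the only genes with an adjusted P below 0.1. limma-voom called 0 genes as well, whereas DESeq2's Wald test, the tool the study used, called 56 (46 negative, 10 positive). All 56 had an unadjusted P below 0.05 in edgeR, and an adjusted P of 0.0968 to 0.483 there. The 2 tools test the same contrast on the same counts, so this is not separate support. DESeq2's count ran from 15 to 612 when each library was left out in turn, the lowest without replicate 3 of skpo-1 on E. coli and the highest without replicate 1 of N2 on E. faecalis.

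Of those 56 genes, 9 were called by DESeq2 in each of the 14 fits with a library left out. They were fmo-2, T22F3.11, C30G12.2, C50F7.5 and T16G1.4 with a negative difference, and asp-17, K08D8.5, F55G11.2 and C49G7.12 with a positive one. No other of the 56 was called in every such fit. At most genes the data allow a wide range of differences. The median SE of the difference was 0.44 on the log2 scale, and the 95% interval lay within a 2-fold difference either way for 5017 genes. That share was 63.5% among genes of 100 CPM and above, 55.1% from 10 to 100 CPM, 12.1% from 1 to 10 CPM and 0.56% below 1 CPM. A gene that missed the threshold is therefore not shown to respond alike in the 2 genotypes.

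The negative and the positive genes had different shapes. These 2 groups were chosen by the P value of the difference itself, so their medians and the order of their group means are a description and were not tested. The 757 negative genes had a median response of 0.40 in skpo-1 and of 2.48 in N2. Their median genotype effect, skpo-1 over N2, was -0.81 on E. faecalis and 1.26 on E. coli. The response was up in both genotypes for 600 of them, down in skpo-1 and up in N2 for 149, and down in both for 8. N2 on E. coli had the lowest mean of the 4 groups in 733 of the 757, against 26.8% of all tested genes. Choosing negative differences favors a low level in that group, so unselected genes are not a like reference. As a description, most negative genes were lowest in N2 on E. coli, with a higher mean in skpo-1 on E. coli. They were also weakly expressed, with a median of 1.83 CPM against 9.01 CPM over all tested genes.

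The 459 positive genes had a median response of 0.65 in skpo-1 and of -0.49 in N2, and a median genotype effect of 0.53 on E. faecalis and of -0.61 on E. coli. The response was up in skpo-1 and down in N2 for 230, up in both for 132 and down in both for 97. The lowest of the 4 means was that of skpo-1 on E. coli in 249 and that of N2 on E. faecalis in 201. Over all tested genes these groups were lowest in 27.2% and 24.4%. Choosing positive differences favors low levels in both groups, so unselected genes are again not a like reference. The median level of the 459 genes was 8.38 CPM, close to that of all tested genes. By chromosome, the share of negative genes was highest on IV (8.01%) and lowest on X (2.49%). The share of positive genes was highest on V (3.94%) and X (3.80%) and lowest on I (1.81%).

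**Figure D1:**
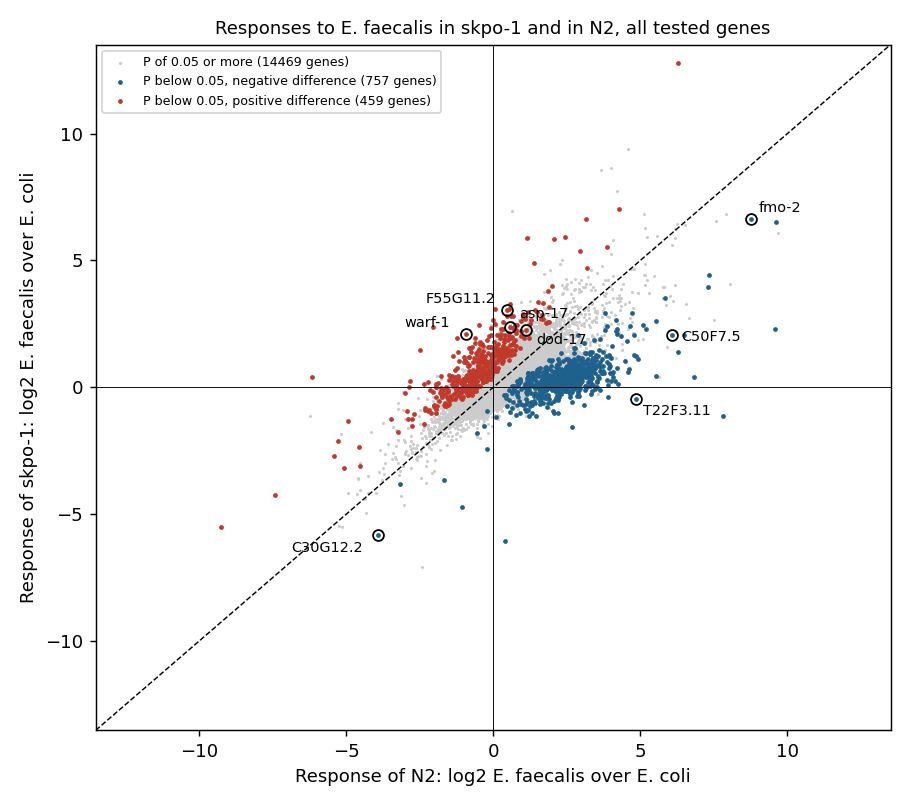
Each point is a tested gene, with the response of skpo-1 on the vertical axis and that of N2 on the horizontal axis, both as log2 of E. faecalis over E. coli. The dashed line marks equal responses, below it lie the 757 blue genes with a negative difference and above it the 459 red genes with a positive one (unadjusted P below 0.05), and the highest red point is clec-45, which had no count in skpo-1 on E. coli. Blue genes spread to the right at a skpo-1 response near 0.

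fmo-2 (WBGene00001477, chromosome IV, 10682524 to 10684367) encodes a flavin-containing monooxygenase that bacterial pathogens and fasting induce in the worm. It had 615, 718, 572 and 743 CPM in skpo-1 on E. faecalis and 4.79, 6.85 and 8.46 CPM in skpo-1 on E. coli. In N2 it had 704, 698 and 787 CPM on E. faecalis, and 1.91, 2.20, 1.43 and 1.04 CPM on E. coli. The genotypes overlapped on E. faecalis, and on E. coli every skpo-1 library lay above every N2 library. The gene rose in both genotypes, by 6.64 in skpo-1 (SE 0.29, adjusted P = 3.54e-09) and by 8.77 in N2 (SE 0.29, adjusted P = 1.49e-10). The difference was -2.13 (SE 0.32, 95% interval -2.82 to -1.44, adjusted P = 0.0968). It stayed between -2.33 and -1.94 when any library was left out. The genotype effect was 1.99 on E. coli (adjusted P = 0.00104) and -0.14 on E. faecalis (adjusted P = 0.885).

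T22F3.11 (WBGene00020700, chromosome V, 3612158 to 3614553) had the second smallest P. It had 3.46, 5.45, 2.51 and 6.49 CPM in skpo-1 on E. faecalis and 3.08, 6.77 and 8.74 CPM in skpo-1 on E. coli, and these groups overlapped. N2 had 3.18, 8.66 and 16.1 CPM on E. faecalis, and 0.272, 0.131, 0.271 and 0.738 CPM on E. coli. N2 on E. coli was the group that stood apart, with all 4 libraries below the other 10. The response was -0.45 in skpo-1 (adjusted P = 0.552), and in N2 the gene rose by 4.84 (SE 0.64, adjusted P = 0.00018). The difference was -5.29 (SE 0.82, adjusted P = 0.0968), and -5.87 to -4.63 with a library left out.

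C50F7.5 also had its lowest levels in N2 on E. coli. Its levels were 94.5, 186, 156 and 175 CPM in skpo-1 on E. faecalis and 28.7, 36.7 and 45.5 CPM in skpo-1 on E. coli. In N2 they were 63.6, 272 and 446 CPM on E. faecalis, and 4.49, 1.67, 2.29 and 7.44 CPM on E. coli. Within each genotype the bacteria did not overlap, and the genotypes overlapped on E. faecalis only. The difference was -4.03 (SE 0.75, adjusted P = 0.333), with a genotype effect of 3.26 on E. coli (adjusted P = 0.015).

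C30G12.2 was the exception among the 15 leading negative genes, because it fell on E. faecalis in both genotypes. It had 1.07, 0.778, 1.63 and 0.983 CPM in skpo-1 on E. faecalis, and 62.2, 74.1 and 49.5 CPM in skpo-1 on E. coli. N2 had 1.15, 1.31 and 0.923 CPM on E. faecalis and 17.1, 17.3, 16.3 and 17.5 CPM on E. coli. The genotypes ended at overlapping levels on the pathogen and started from levels that did not overlap on E. coli. It fell by 5.82 in skpo-1 (adjusted P = 3.47e-09) and by 3.92 in N2 (adjusted P = 2.36e-07), and the difference was -1.91 (SE 0.32, adjusted P = 0.161).

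T16G1.4 had 9.86, 9.76, 9.42 and 11.7 CPM in skpo-1 on E. faecalis and 6.59, 6.42 and 8.39 CPM in skpo-1 on E. coli. N2 had 5.52, 9.39 and 7.25 CPM on E. faecalis and 1.29, 2.17, 0.620 and 1.04 CPM on E. coli. skpo-1 lay above N2 on both bacteria, by little on E. faecalis. The response was 0.52 in skpo-1 (adjusted P = 0.239), the gene rose by 2.495 in N2 (adjusted P = 0.00018), and the difference was -1.98 (SE 0.45, adjusted P = 0.44).

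In all 15 leading negative genes, every skpo-1 library on E. coli lay above every N2 library on E. coli. These genes were chosen on a contrast that contains this genotype difference, so the choice favored such a separation and it is given as a description. How often it occurs over all tested genes was not counted. The direct genotype test on E. coli passed the 2-fold threshold at an adjusted P below 0.05 in several of them, among others T16G1.4 at 2.44 (adjusted P = 0.00265), M195.2 at 2.98 (adjusted P = 0.0229) and abu-12 at 2.46 (adjusted P = 0.0187). abu-12 belongs to a family of small proteins named for activation when the unfolded protein response is blocked. It had 3.91, 4.57, 2.95 and 3.18 CPM in skpo-1 on E. faecalis and 2.36, 5.09 and 7.06 CPM in skpo-1 on E. coli. N2 had 3.62, 5.70 and 2.85 CPM on E. faecalis and 1.43, 0.445, 1.12 and 0.553 CPM on E. coli. Only the last group lay apart, and the difference was -2.61 (SE 0.60, adjusted P = 0.44). wago-10, an Argonaute of the worm's small RNA pathways, had 1.497, 2.23 and 7.74 CPM in N2 on E. faecalis, and its difference of -3.81 was -2.77 without the third of these libraries. C17H12.3 and C17H12.12 lie 294 bases apart on opposite strands of chromosome IV, and the counting is not stated to use strand. Their differences were -3.27 (SE 0.75) and -2.76 (SE 0.61).

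**Figure D2:**
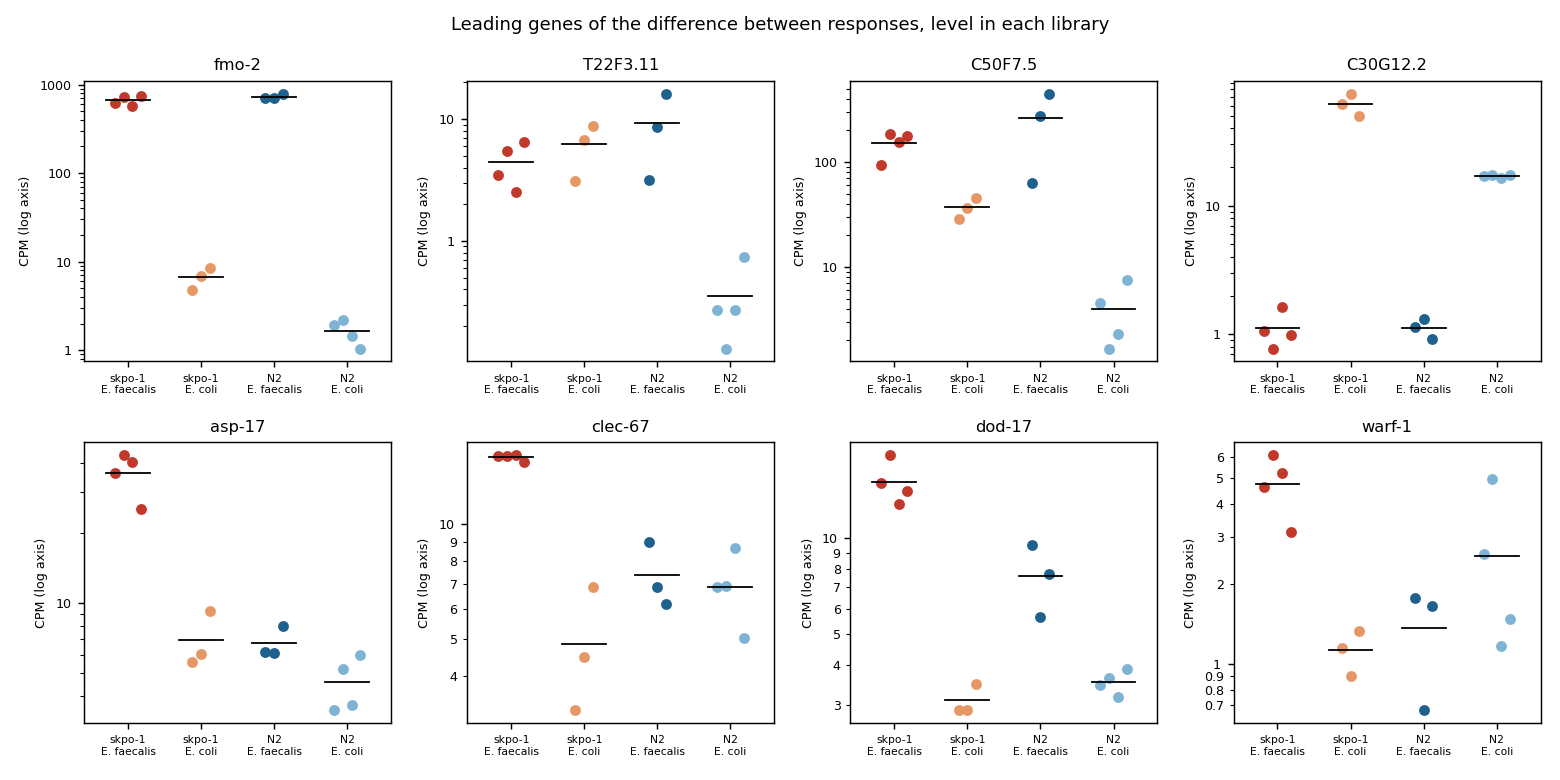
CPM on a log axis in each library of skpo-1 (E. faecalis, then E. coli) and of N2 (same order), for 4 leading negative genes (upper row) and 4 leading positive genes (lower row). Points are libraries and lines are group means. N2 on E. coli is lowest for fmo-2, T22F3.11 and C50F7.5, whereas skpo-1 on E. faecalis is highest for asp-17, clec-67 and dod-17. For warf-1 its 3.14 to 6.09 CPM overlap 1 library of N2 on E. coli.

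The gene with the smallest P among positive differences was asp-17 (WBGene00012683, chromosome V, 19035723 to 19037322), which encodes an aspartic protease. It had 36.3, 43.4, 40.5 and 25.5 CPM in skpo-1 on E. faecalis and 5.597, 6.07 and 9.23 CPM in skpo-1 on E. coli. N2 had 6.18, 6.10 and 8.01 CPM on E. faecalis, and 3.47, 5.21, 3.64 and 5.96 CPM on E. coli. Every library of skpo-1 on E. faecalis exceeded all others. asp-17 rose in skpo-1 by 2.39 (SE 0.27, adjusted P = 6.99e-05), and the response of N2 was 0.56 (SE 0.26, adjusted P = 0.0933). The difference was 1.83 (SE 0.37, 95% interval 1.04 to 2.62, adjusted P = 0.432), and 1.69 to 2.08 with a library left out. Here the genotype effect lay on the pathogen, at 2.43 (adjusted P = 0.00079), and was 0.60 on E. coli (adjusted P = 0.487).

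clec-67, a C-type lectin of the kind induced by bacterial infection, had 15.1, 15.1, 15.2 and 14.6 CPM in skpo-1 on E. faecalis, and 3.26, 4.50 and 6.85 CPM in skpo-1 on E. coli. N2 had 9.01, 6.86 and 6.19 CPM on E. faecalis, and 6.87, 6.91, 8.68 and 5.04 CPM on E. coli. skpo-1 on E. faecalis lay above the other groups, and N2 overlapped between bacteria. The gene rose by 1.63 in skpo-1 (adjusted P = 0.00119), the response of N2 was 0.09 (adjusted P = 0.795), and the difference was 1.54 (SE 0.36, adjusted P = 0.44). F54E2.1 was likewise highest in skpo-1 on E. faecalis, with 215, 221, 226 and 187 CPM in skpo-1 on E. faecalis and at most 125 CPM elsewhere. Its difference was 1.35 (SE 0.29, adjusted P = 0.44), or 1.10 without the second replicate of N2 on E. coli. The genotype effect on E. faecalis was 1.28 (adjusted P = 0.0271).

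C49G7.12 and warf-1 rose in skpo-1 and had a response below 0 in N2, where the bacteria overlapped. C49G7.12 had 4.04, 4.47, 4.52 and 3.14 CPM in skpo-1 on E. faecalis and 0.995, 0.744 and 1.47 CPM in skpo-1 on E. coli. N2 had 0.927, 0.518 and 1.30 CPM on E. faecalis and 0.953, 4.40, 1.55 and 1.54 CPM on E. coli, with the second replicate of the last group far above its others. The gene rose by 1.94 in skpo-1 (adjusted P = 0.0155), the response of N2 was -1.23 (adjusted P = 0.0534), and the difference was 3.18 (SE 0.68, adjusted P = 0.44), or 2.49 without that replicate. warf-1, which encodes an ARF-related small GTPase, rose by 2.09 in skpo-1 (adjusted P = 0.0116) and had a response of -0.93 in N2 (adjusted P = 0.131). It had 2.59, 4.97, 1.16 and 1.48 CPM in N2 on E. coli, again highest in the second replicate. Its difference was 3.02 (SE 0.69), or 2.43 without that replicate. his-45, a histone gene, was the reverse case, since its response in skpo-1 was 0.47 (adjusted P = 0.359) and it fell by 1.51 in N2 (adjusted P = 0.0071). Its difference was 1.98 (SE 0.52).

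cpr-8 and gst-19 rose in both genotypes and had a positive difference. cpr-8, a cathepsin B-like cysteine protease, had 69.0, 68.1, 65.0 and 50.03 CPM in skpo-1 on E. faecalis and 10.2, 8.53 and 11.4 CPM in skpo-1 on E. coli. N2 had 62.4, 40.9 and 27.1 CPM on E. faecalis and 13.7, 25.6, 17.05 and 15.3 CPM on E. coli. The genotypes overlapped on E. faecalis, and skpo-1 lay below N2 on E. coli. The responses were 2.65 in skpo-1 (adjusted P = 4.67e-05) and 1.27 in N2 (adjusted P = 0.00267), and the difference was 1.38 (SE 0.38, adjusted P = 0.44). The lectin gene clec-97 fell in both genotypes, by 1.74 in skpo-1 and by 3.22 in N2, so its difference of 1.477 (SE 0.41) marks a smaller fall. gst-19, a glutathione S-transferase, had 1.199, 1.88, 1.256 and 1.1398 CPM in skpo-1 on E. faecalis, and 0.0311, 0.0783 and 0 CPM in skpo-1 on E. coli. Those last 3 libraries held 3 counts together, so its fitted difference of 3.53 depends on the prior count, and the same holds for H23N18.6. In N2 gst-19 had 0.795, 0.975 and 0.896 CPM on E. faecalis and 0.272, 0.523, 0.310 and 0.184 CPM on E. coli.

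A stretch of chromosome IV held 4 of the 15 leading positive genes. K08D8.6, K08D8.5, F55G11.2 and dod-17 lie between positions 12887062 and 12978343 (WBcel235), a span of 91.3 kb with 23 tested genes. The stretch was singled out after these genes were seen, and K08D8.6 and dod-17 set its ends. The 4 are therefore in its counts by choice, and unselected genes are not a like reference. In it 10 genes had a positive difference at an unadjusted P below 0.05 and 0 a negative one, beside 2.93% and 4.83% over all tested genes, the median difference was 0.95, and 8 genes had a difference below 0. Besides the 4, the 10 were irg-6, dod-21, dod-24, F55G11.8, K08D8.4 and K08D8.12. Some had a group mean near the floor. In skpo-1 on E. coli irg-6 had 0.0234 CPM and K08D8.12 had 0.384 CPM, and dod-21 had 0.188 CPM in N2 on E. faecalis. The irg genes are named for their response to infection and the dod genes for lying downstream of the insulin pathway's factor DAF-16.

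The genes of this stretch reached positive differences in unlike ways. dod-17 (WBGene00010745) had 14.8, 18.2, 12.8 and 13.99 CPM in skpo-1 on E. faecalis, and 2.89, 2.90 and 3.50 CPM in skpo-1 on E. coli. In N2 it had 9.49, 5.67 and 7.71 CPM on E. faecalis and 3.47, 3.64, 3.18 and 3.87 CPM on E. coli. It rose in both genotypes, by 2.28 in skpo-1 (adjusted P = 2.35e-05) and by 1.10 in N2 (adjusted P = 0.00203), with a difference of 1.17 (SE 0.31, adjusted P = 0.44). F55G11.2 had 16.2, 11.1, 7.66 and 10.53 CPM in skpo-1 on E. faecalis and 1.43, 1.14 and 1.61 CPM in skpo-1 on E. coli. N2 had 8.21, 2.38 and 4.94 CPM on E. faecalis and 3.95, 3.79, 2.98 and 4.18 CPM on E. coli. skpo-1 on E. coli was the low group, and N2 overlapped between bacteria. F55G11.2 rose by 3.04 in skpo-1 (adjusted P = 0.000209), the response of N2 was 0.47 (adjusted P = 0.295), and the difference was 2.57 (SE 0.52, adjusted P = 0.432). K08D8.5 instead fell in N2. It had 4.57, 6.32, 6.59 and 5.70 CPM in skpo-1 on E. faecalis and 4.29, 4.58 and 3.98 CPM in skpo-1 on E. coli. N2 had 3.31, 2.77 and 2.93 CPM on E. faecalis and 5.72, 9.89, 5.89 and 5.84 CPM on E. coli. Its response was 0.43 in skpo-1 (adjusted P = 0.202) and -1.19 in N2 (adjusted P = 0.00289), and the difference was 1.62 (SE 0.35, adjusted P = 0.44). K08D8.6 also fell in N2, by 1.34 (adjusted P = 0.000443), and its difference was 1.06 (SE 0.27). Without the second replicate of N2 on E. coli the difference was 1.38 for K08D8.5 and 0.82 for K08D8.6. dod-24, with 11.7, 17.6, 11.4 and 7.35 CPM in skpo-1 on E. faecalis and 16.6, 60.1, 30.8 and 14.5 CPM in N2 on E. coli, had a difference of 1.85 (SE 0.68, adjusted P = 0.506). Its highest library was the second replicate of N2 on E. coli, and without it the difference was 1.28.

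Gene families defined by symbol were described next by their counts at an unadjusted P below 0.05, beside 4.83% negative and 2.93% positive over all tested genes. Counts by sign alone stand beside 46.9% negative over all tested genes, a share of 53.7% without the second replicate of N2 on E. coli. With all libraries, edgeR called no member of a family. DESeq2 called cut-2, spe-18, clec-60, cyp-13A7, fmo-2, lipl-3 and cpg-19 with a negative difference, and clec-45, clec-67 and asp-17 with a positive one. Without replicate 1 of N2 on E. faecalis, edgeR called fbxa-24, fmo-2 and lipl-3 with a negative difference, and col-101, irg-4, irg-5, cyp-35C1, cyp-35A5 and ugt-22 with a positive one. The sperm genes lay furthest below 0. All 28 tested major sperm protein genes, which encode the motor protein of worm sperm, had a negative difference (median -1.57), and 19 of them (67.9%) had an unadjusted P below 0.05. Of 50 further sperm-specific and spe genes, 45 were negative (median -1.42) and 21 (42%) had an unadjusted P below 0.05. The major sperm protein copies are nearly identical, so the count of any 1 of them is uncertain. The response to E. faecalis was called up for 0 of the 28 in skpo-1, where 10% of all tested genes were called up, and for 25 of the 28 in N2, where 19.2% were.

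The sperm genes' difference rested on few libraries. The mean log2 CPM of the major sperm proteins was 3.07, 2.87, 1.58 and 3.11 in skpo-1 on E. faecalis and 2.34, 1.87 and 3.55 in skpo-1 on E. coli. It was 2.65, 2.95 and 4.03 in N2 on E. faecalis and 1.37, 2.16, 1.57 and 1.78 in N2 on E. coli. The highest was the third replicate of N2 on E. faecalis, and the mutant groups overlapped. Without that library 3 of the 28 had an unadjusted P below 0.05 with a median of -1.001, and without replicate 3 of skpo-1 on E. coli 3 had one with a median of -0.89. The direction held for all 28 in both fits. limma-voom with all libraries gave 10 of the 28. The count stayed between 12 and 25 with any other library left out, 12 without replicate 1 of N2 on E. coli. For the sperm-specific and spe genes the count of 21 became 7 and 10 in the fits without those libraries, with 14 to 28 in the others, 14 without replicate 1 or 4 of N2 on E. coli. spe-18 had 9.37, 11.7, 5.02 and 7.82 CPM in skpo-1 on E. faecalis and 4.91, 4.97 and 8.95 CPM in skpo-1 on E. coli. N2 had 7.24, 14.2 and 33.9 CPM on E. faecalis and 1.91, 1.23, 3.87 and 1.41 CPM on E. coli. Its difference was -2.67 (SE 0.69, adjusted P = 0.44). In whole worms, fewer sperm and less sperm RNA per cell cannot be told apart.

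Genes of the cuticle leaned the same way. Of 148 tested cuticle collagens, the structural proteins of the cuticle, 113 were negative (median -0.57), 14 (9.46%) had an unadjusted P below 0.05 and 0 were positive at that level. The median response was -0.15 in skpo-1 and 0.74 in N2, and the median genotype effect was 0.73 on E. faecalis and 1.23 on E. coli. The mean log2 CPM was 4.60, 4.04, 3.45 and 4.32 in skpo-1 on E. faecalis and 3.75, 4.10 and 4.91 in skpo-1 on E. coli. In N2 it was 3.58, 3.43 and 3.27 on E. faecalis and 3.26, 2.80, 3.17 and 2.23 on E. coli. Each mutant group lay above its N2 counterpart, apart from the third replicate of skpo-1 on E. faecalis, which fell among the N2 libraries. Without replicate 3 of skpo-1 on E. coli the collagens' median was -0.06 and 3 had a negative difference at an unadjusted P below 0.05. The negative count was 27 without replicate 1 of that group, 24 without replicate 1 of skpo-1 on E. faecalis and 23 without replicate 1 or 3 of N2 on E. coli. Without replicate 1 of N2 on E. faecalis the median was -0.38, with 13 negative and 3 positive at that level. The collagen called in that fit, col-101, was a positive one, at 2.35 (adjusted P = 0.0441). The 5 markers of the hypodermis had a median of -1.06, and of -0.40 without replicate 3 of skpo-1 on E. coli, with 0 at an unadjusted P below 0.05. Of these markers 3 were negative and 2 positive. They include the collagen genes rol-6 and sqt-3 and the hedgehog-related wrt-2, so they are not separate from those families.

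col-65 had 31.3, 26.4, 15.4 and 23.3 CPM in skpo-1 on E. faecalis and 6.34, 11.24 and 21.2 CPM in skpo-1 on E. coli. N2 had 13.02, 31.001 and 17.99 CPM on E. faecalis and 3.13, 2.80, 3.37 and 1.17 CPM on E. coli. N2 on E. coli was the low group, and the difference was -2.06 (SE 0.59, adjusted P = 0.44). The cuticlin gene cut-2, whose product is part of the insoluble cuticle layer, had 46.2, 67.9, 46.3 and 54.6 CPM in skpo-1 on E. faecalis and 26.2, 42.2 and 48.7 CPM in skpo-1 on E. coli. In N2 it had 40.7, 114 and 66.5 CPM on E. faecalis and 16.2, 8.37, 8.29 and 1.60 CPM on E. coli, and its difference was -2.63 (SE 0.68, adjusted P = 0.44). The 30 cuticlins as a family had a median of -0.06. Of 40 hedgehog-related genes, secreted proteins tied to cuticle formation and molting, 8 (20%) were negative and 2 positive at that level (median -0.34). The 8 became 2 without replicate 3 of skpo-1 on E. coli and 5 without its replicate 2, without replicate 2 or 3 of skpo-1 on E. faecalis or without the second replicate of either N2 group. Of 26 patched-related genes 21 were negative (median -0.44), 3 of them with an unadjusted P below 0.05, and ptr-3 and ptr-18 led at -1.66 (SE 0.48) and -1.42 (SE 0.42). Among heme peroxidases and dual oxidases, skpo-2, a paralog of the mutated gene, had a difference of -1.75 (SE 0.68, adjusted P = 0.54).

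**Figure D3:**
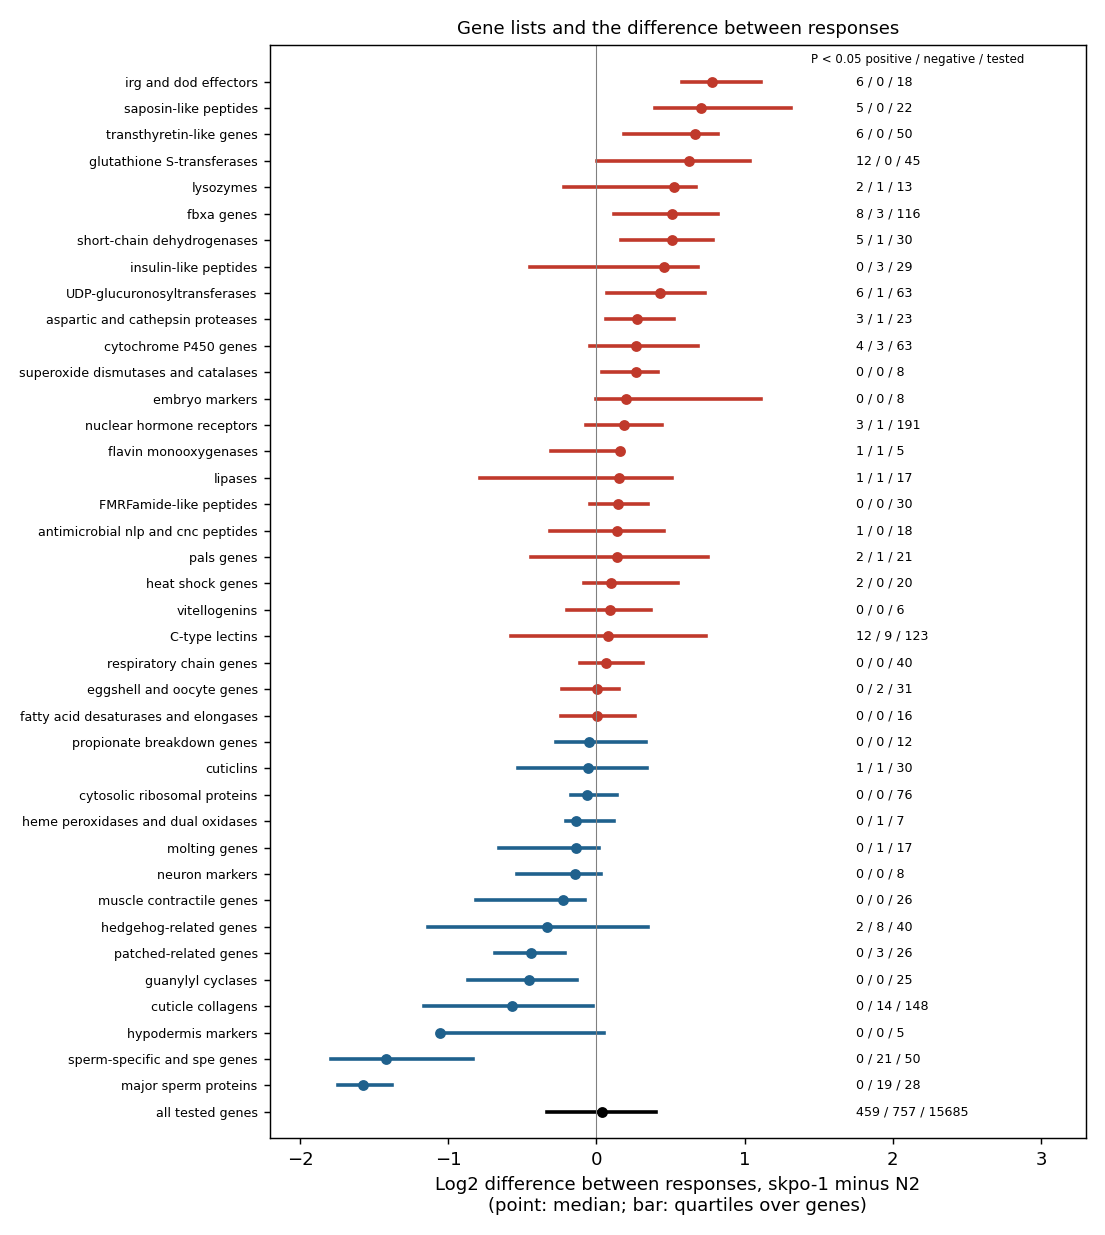
Median log2 difference between responses (point) and quartiles over genes (bar) for each gene list, with all tested genes in the bottom row. The numbers at the right are the genes at an unadjusted P below 0.05 with a positive difference, those with a negative difference, and the genes tested. Sperm genes lie lowest at -1.57 and -1.42, and the irg and dod genes highest at 0.78.

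Among defense genes, the irg and dod effectors and the saposin-like peptides leaned the other way, whereas the C-type lectins were mixed. Of 18 irg and dod effectors, 16 were positive (median 0.78) and 6 (33.3%) had an unadjusted P below 0.05, with 0 negative at that level. This list holds irg-6, dod-17, dod-21, dod-22 and dod-24 of the stretch on chromosome IV, so the counts of the list and of the stretch share genes. Their mean log2 CPM was 3.34, 3.74, 3.55 and 3.28 in skpo-1 on E. faecalis and 2.40, 2.55 and 2.36 in skpo-1 on E. coli. In N2 it was 3.09, 2.71 and 2.71 on E. faecalis and 2.58, 3.35, 2.69 and 2.52 on E. coli. The mutant's bacteria were fully apart and the N2 groups overlapped. Without the second replicate of N2 on E. coli the median was 0.53, with 6 positive and 1 negative at an unadjusted P below 0.05. Without replicate 1 of N2 on E. faecalis it was 0.89, with 9 positive.

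Of 22 saposin-like peptides, small proteins that can attack bacterial membranes, 20 were positive (median 0.71) and 5 (22.7%) had an unadjusted P below 0.05. Their mean log2 CPM in N2 on E. coli was 3.01, 4.59, 3.18 and 2.70, and leaving out the high second library took the median to 0.22 and the 5 to 4. The 5 became 1 without replicate 2 of skpo-1 on E. coli, 2 and 3 without replicates 3 and 2 of N2 on E. faecalis, and 8 and 9 without replicates 1 and 4 of N2 on E. coli. Of 13 lysozymes, 2 were positive and 1 negative at that level (median 0.52), and the median was 0.10 without the second replicate of N2 on E. coli. lys-2 had 103, 94.97, 101 and 79.1 CPM in skpo-1 on E. faecalis and 42.9, 43.3 and 47.8 CPM in skpo-1 on E. coli. N2 had 70.3, 29.7 and 27.9 CPM on E. faecalis and 35.1, 182, 69.8 and 44.1 CPM on E. coli. Its difference was 2.04 (SE 0.65, adjusted P = 0.454), and 1.30 without the high second library of N2 on E. coli (adjusted P = 0.532). ilys-3, an invertebrate-type lysozyme, ran opposite. It had 2.84, 5.67, 2.07 and 6.25 CPM in skpo-1 on E. faecalis and 5.17, 19.2 and 16.4 CPM in N2 on E. faecalis, and its difference was -2.65 (SE 0.81, adjusted P = 0.442). C-type lectins were mixed, with 12 positive and 9 negative of 123 (median 0.08).

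**Figure D4:**
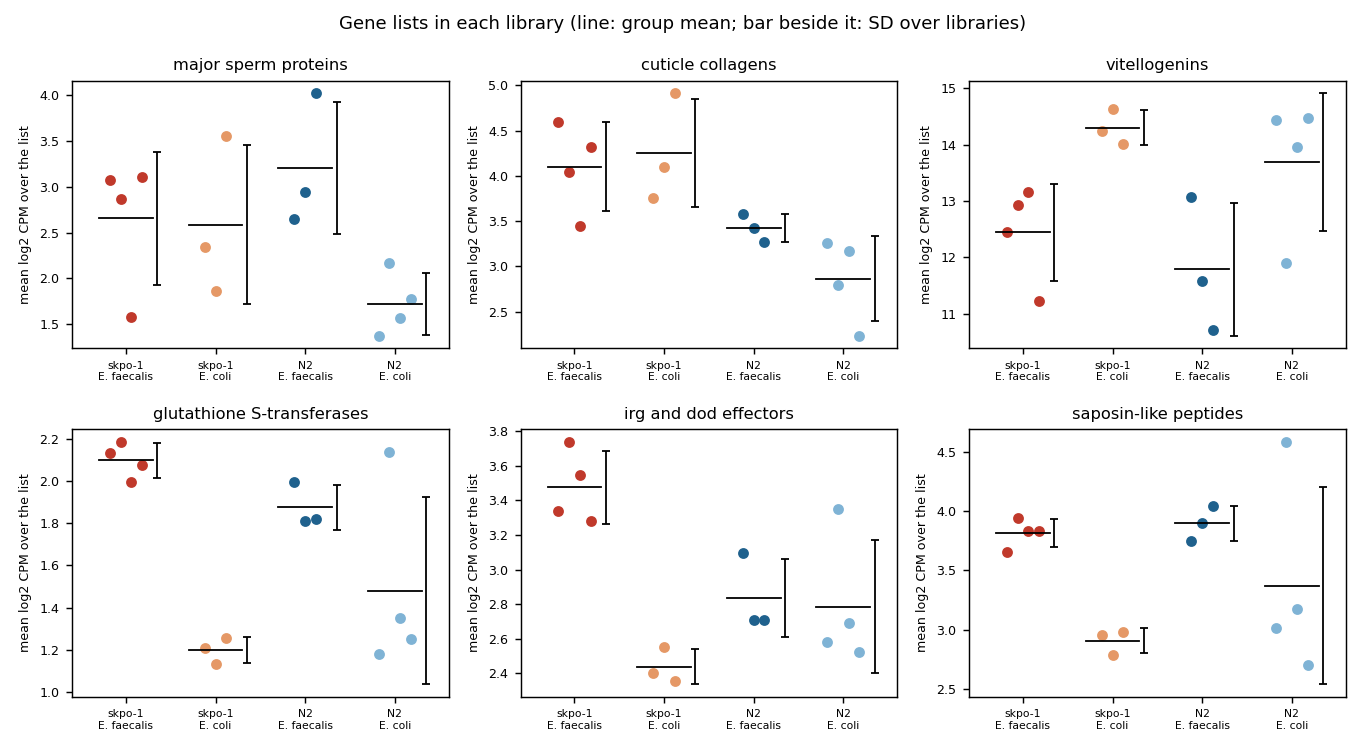
Mean log2 CPM over the genes of 6 lists in each library of skpo-1 (E. faecalis, then E. coli) and of N2 (same order). Points are libraries, lines are group means and bars are the SD over the 3 or 4 libraries. The second replicate of N2 on E. coli stands above the rest of its group for glutathione S-transferases, irg and dod effectors and saposin-like peptides, and below it for vitellogenins.

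Detoxification families were mostly positive. Of 45 glutathione S-transferases, which conjugate xenobiotics and oxidized lipids, 34 were positive (median 0.62) and 12 (26.7%) had an unadjusted P below 0.05, with 0 negative. Without the second replicate of N2 on E. coli the median was 0.32 and the 12 became 5. With another library left out the 12 ran from 4 (without replicate 2 of N2 on E. faecalis) to 16 (without replicate 1 or 4 of N2 on E. coli). It was 6 to 8 without replicate 1 or 2 of either skpo-1 group and 7 without replicate 3 of N2 on E. faecalis, so its size rests on many single libraries. gsto-1, an omega-class member, had 219, 176, 165 and 192 CPM in skpo-1 on E. faecalis and 4.14, 3.13 and 4.89 CPM in skpo-1 on E. coli. In N2 it had 195, 119 and 73.7 CPM on E. faecalis and 4.90, 14.8, 7.56 and 7.25 CPM on E. coli, and the difference was 1.67 (SE 0.49, adjusted P = 0.44), or 1.2602 without the second of those libraries. Of 63 UDP-glucuronosyltransferases 50 were positive (median 0.43), 6 of them and 1 negative gene at that level. Of 30 short-chain dehydrogenases 25 were positive (median 0.51), with 5 positive and 1 negative, and without the second replicate of N2 on E. coli the median was 0.29. Of 63 cytochrome P450 genes, 4 were positive and 3 negative at that level (median 0.27). With a library left out the positive count ran from 2 (without replicate 4 of skpo-1 on E. faecalis or replicate 2 of skpo-1 on E. coli) to 17 (without replicate 1 of N2 on E. faecalis), the negative count from 2 to 4 and the median from 0.16 to 0.39.

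Single metabolic genes went the other way. cyp-13A7 had 10.8, 49.1, 54.2 and 50.5 CPM in skpo-1 on E. faecalis and 1.31, 2.15 and 2.38 CPM in skpo-1 on E. coli. N2 had 46.4, 97.2 and 49.6 CPM on E. faecalis and 0.3403, 0.602, 0.387 and 0.123 CPM on E. coli. The genotypes were apart on E. coli only, as for fmo-2, and the difference was -2.90 (SE 0.73, adjusted P = 0.44). lipl-3, a lysosomal lipase induced by fasting, had 0.577, 0.713, 0.251 and 0.590 CPM in skpo-1 on E. faecalis and 0.684, 0.783 and 1.26 CPM in skpo-1 on E. coli. In N2 it had 0.839, 5.24 and 11.2 CPM on E. faecalis, above every mutant library there, and 0.136, 0.811, 0.930 and 0.738 CPM on E. coli. Its difference was -3.77 (SE 0.95, adjusted P = 0.44). Transthyretin-like genes (44 of 50 positive, 6 with an unadjusted P below 0.05, median 0.66) and fbxa genes, a family of F-box proteins (90 of 116 positive, 8 at that level, median 0.51), had medians of 0.19 and 0.12 without the second replicate of N2 on E. coli. With a library left out the positive count ran from 0 to 14 for the transthyretin-like genes, from 2 to 14 for the fbxa genes, from 1 to 10 for the short-chain dehydrogenases and from 3 to 16 for the UDP-glucuronosyltransferases, so these counts are not stable at this number of libraries.

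Housekeeping and metabolic families lay near 0. The median difference was -0.06 over 76 cytosolic ribosomal protein genes, 57 of which had a 95% interval within 2-fold, and 0.06 over 40 respiratory chain genes, 27 of which did. Both lists had 0 genes at an unadjusted P below 0.05. The 12 propionate breakdown genes also had 0, with a median response of -0.44 in skpo-1 and -0.56 in N2. Among them ech-6, an enoyl-CoA hydratase, had 112, 116, 114 and 117 CPM in skpo-1 on E. faecalis and 498, 403 and 479 CPM in skpo-1 on E. coli. N2 had 108, 93.7 and 103 CPM on E. faecalis and 450.2, 604, 448 and 473 CPM on E. coli. It fell in both genotypes, by 2.01 in skpo-1 and by 2.28 in N2, with a difference of 0.27 (SE 0.21, 95% interval -0.17 to 0.71). The 6 vitellogenins had a median response of -2.0004 in skpo-1 and -1.96 in N2 and a median difference of 0.09. That value was 0.85 without replicate 1 of N2 on E. faecalis and -0.31 without its replicate 3, and vit-3 had an SE of 1.04, so these data bound the yolk genes' difference poorly. Eggshell and oocyte genes had a median of 0.01 over 31 genes, with 2 negative (6.45%) and 0 positive at an unadjusted P below 0.05. Muscle contractile genes had a median of -0.22 over 26 genes, with 0 at that level. Of these muscle genes 20 were negative (76.9%), and their median was -0.06 without the second replicate of N2 on E. coli.

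Signaling, stress, antimicrobial and protease families had at most 3 genes per direction at that level. In some of these lists that was a larger share than over all tested genes. Of 191 nuclear hormone receptors, transcription factors that sense small lipophilic molecules, 3 were positive (1.57%) and 1 negative (0.52%), with a median of 0.18. Of 29 insulin-like peptides 0 were positive and 3 negative (10.3%), although the median was 0.45, and it was -0.33 without the second replicate of N2 on E. coli. Of 25 guanylyl cyclases, mostly sensory receptors of neurons, 22 were negative (median -0.46) and 0 had an unadjusted P below 0.05. The 30 FMRFamide-like neuropeptide genes, the 8 neuron markers and the 8 embryo markers also had 0, with medians of 0.15, -0.14 and 0.20. Heat shock genes (2 positive of 20, 10%) and nlp and cnc antimicrobial peptides (1 positive of 18, 5.56%) had medians of 0.10 and 0.14. The pals genes, which respond to intracellular infection, had 2 positive (9.52%) and 1 negative (4.76%) of 21, with a median of 0.14. Aspartic and cathepsin proteases, the family of asp-17 and cpr-8, had 3 positive and 1 negative of 23 (median 0.27).

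Leaving out replicate 1 of N2 on E. faecalis moved the counts of called genes and of genes at an unadjusted P below 0.05 more than leaving out any other single library. Without it edgeR called 24 genes (16 positive, 8 negative) and 2438 had an unadjusted P below 0.05. The number of genes with an interval within 2-fold moved most without the second replicate of N2 on E. coli, to 7177. The 24 genes were selected by leaving replicate 1 out, which favors genes where it lies apart from its group, so its place in them is a description and was not tested. It lay on the mutant side of both other libraries of its group in all 16 positive genes and in 7 of the 8 negative ones. It was within or past the range of skpo-1 on E. faecalis in 15 of the 16 and in 7 of the 8. Its place was not counted over all tested genes. The genes named here were chosen after their values were seen. haf-7, a half-size ABC transporter gene, had 131, 109, 138 and 111 CPM in skpo-1 on E. faecalis and 7.56, 9.004 and 8.67 CPM in skpo-1 on E. coli. In N2 on E. faecalis it had 146 CPM in replicate 1, and 32.7 and 23.9 CPM in the others, above 11.23, 7.40, 9.34 and 11.19 CPM in N2 on E. coli.

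cyp-35C1, a cytochrome P450 gene, had 121, 62.9, 75.2 and 83.3 CPM in skpo-1 on E. faecalis and 14.6, 22.7 and 26.3 CPM in skpo-1 on E. coli. N2 had 127, 16.0 and 16.8 CPM on E. faecalis and 21.3, 30.8, 24.4 and 34.2 CPM on E. coli. Its difference was 1.08 (SE 0.79, adjusted P = 0.689) with all libraries and 2.78 without that replicate (adjusted P = 0.0237). irg-4 had 6.22, 4.21, 3.39 and 5.35 CPM in skpo-1 on E. faecalis and 0.964, 2.35 and 1.40 CPM in skpo-1 on E. coli. N2 had 8.61, 1.40 and 0.651 CPM on E. faecalis and 5.24, 8.14, 4.88 and 4.36 CPM on E. coli. irg-5 split in the same way, with 14.1 CPM in replicate 1 and 0.427 and 0.380 CPM in the others. At skpo-1 itself the replicate had 199 CPM, the level of an N2 worm. Whether it or its group members stand for the N2 response cannot be told from 3 libraries. With this library and the second replicate of N2 on E. coli left out together, an alternative chosen after seeing the data, 86 genes were called (49 positive, 37 negative), and the 24 were among them.

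**Figure D5:**
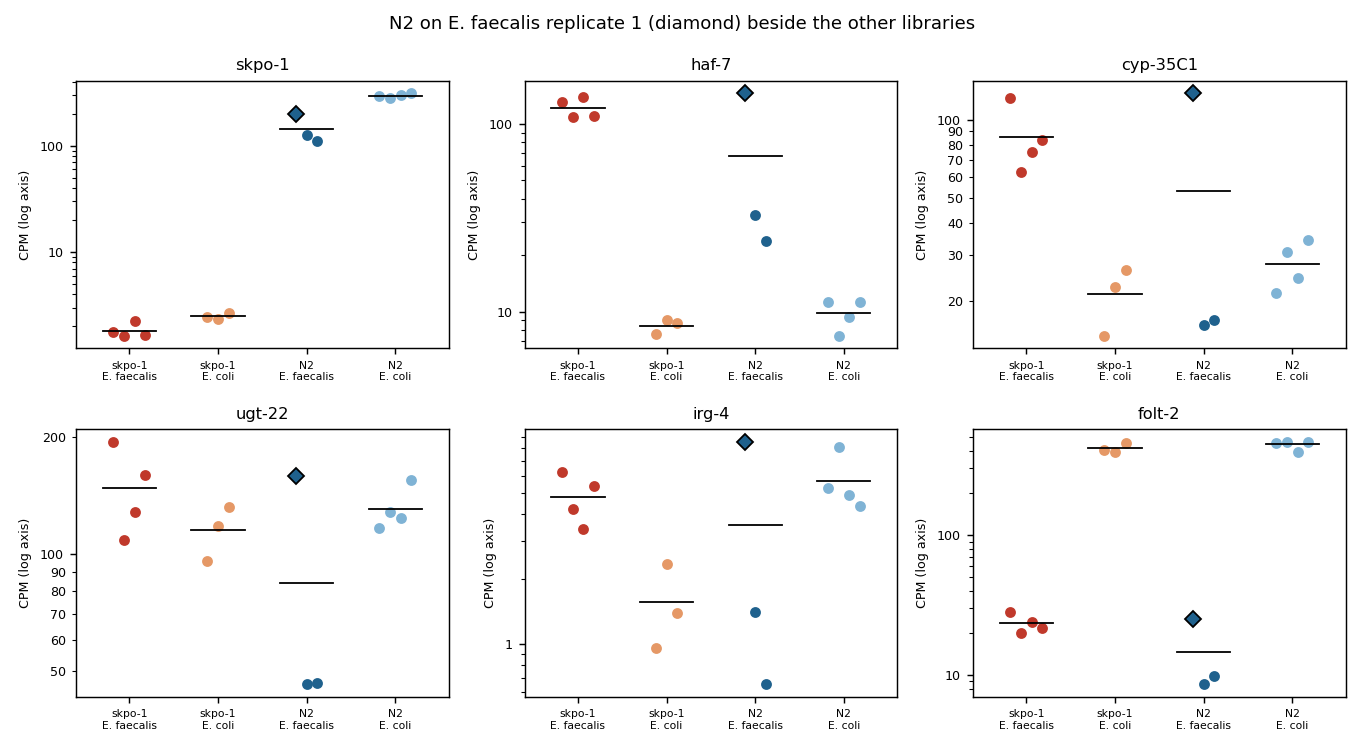
CPM on a log axis for skpo-1 and 5 genes called when replicate 1 of N2 on E. faecalis (diamond) was left out, in each library of the 4 groups. Points are libraries and lines are group means. The diamond lies at or just above the range of skpo-1 on E. faecalis at haf-7, cyp-35C1, ugt-22 and folt-2 and above it at irg-4, but with N2 at skpo-1.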

How the data were processed

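Total RNA of whole worms was sequenced in 14 libraries. The authors trimmed reads with Trimmomatic 0.36, quantified them with Salmon 1.2.1 against the WBcel235 transcriptome and summed transcripts per gene with tximport; the deposited estimated counts are rounded to whole numbers. The authors' second deposited table holds a signal, counts normalized with DESeq2 1.26.0 (R 3.6.3), and served only for 1 alternative scaling. Coordinates and names come from Ensembl release 115 on WBcel235.

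Genes were kept by edgeR's filterByExpr (minimum count 10, minimum total 15). TMM scaling and the quasi-likelihood fit used 1 coefficient per group over all libraries, and the difference between responses was a contrast of the 4 coefficients, without a term for the replicate number. P values were adjusted over all tested genes by the Benjamini-Hochberg method. A gene was called at an adjusted P below 0.05 and a 2-fold change. Levels are CPM with TMM factors, and log2 CPM took a prior count of 2. The libraries' totals of 15174830 to 36682565 counts leave the spread between replicates as the main error (biological coefficient of variation 0.293). The tools were edgeR 4.0.16, DESeq2 1.42.0, ashr 2.2.63 and limma 3.58.1 under R 4.3.3, and the fit was tested on simulated data.

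Genes were named by a rule. It took skpo-1, the 15 genes with the smallest P in each direction (at least 1 count in every group and a mean of 1 CPM in at least 1 group), and up to 3 members of each list under the same conditions. Exceptions are stated in the text. The lists were defined by gene symbol, and 39 of 40 had a member in the table; mitochondrially encoded genes were not analysed here. The lists and the comparison were chosen with earlier results of these data known. Alternatives were DESeq2 with and without ashr shrinkage, limma-voom, median-of-ratios scaling, the authors' factors, no filter, a stricter filter (1 CPM in 7 libraries), a block for the replicate number, other thresholds and each library left out. A fit without both N2_OG1RF replicate 1 and N2_OP50 replicate 2, and DESeq2 with each library left out, were chosen after seeing the data.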

Additional observations from a re-analysis of the deposited data

Results flagged for a closer look

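In groups of 4 libraries, the gap of the extreme library to its nearest neighbor was divided by the range of the group and compared with Dixon's 95% critical value for 4 samples. This was done for 140 named genes (log2 of CPM + 0.1), the 39 lists (mean log2 CPM) and the vitellogenin share. Of 360 such groups 44 exceeded the critical value, and chance alone gives such a value in about 5% of groups.

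The second replicate of N2 on E. coli accounted for 26 of the 44. Among single genes it was high for K08D8.5 (ratio 0.946), K02D3.2 (0.8732), msp-10 (0.9443), spp-15 (0.9111), dhs-3 (0.852), hsp-17 (0.8545), sod-2 (0.8621), sod-1 (0.8667), ttr-6 (0.9208), mmab-1 (0.8579), rpl-41.1 (0.8519), ucr-11 (0.9168) and cpg-3 (0.87). It was low for rpl-5 (0.84), skn-1 (0.8684), pie-1 (0.8756), myo-5 (0.8874), myo-3 (0.8314), unc-13 (0.8375) and egl-3 (0.8366). Among lists it was high for lysozymes (0.8445, at 4.70 against 3.23 to 3.46 in the rest of its group), pals genes (0.9002), fbxa genes (0.8634), short-chain dehydrogenases (0.8307) and insulin-like peptides (0.8487), and low for muscle contractile genes (0.8357, at 6.85 against 7.84 to 8.03).

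The third replicate of skpo-1 on E. faecalis was low for major sperm proteins (0.8425, at 1.58 against 2.87 to 3.11), for sperm-specific and spe genes (0.924) and for msp-65 (0.8292), msp-49 (0.9719), C17H12.3 (0.8827), gcy-22 (0.9029), elo-7 (0.8576) and skpo-2 (0.8679). The first was low for cyp-13A7 (0.9393, at 3.45 against 5.62 to 5.76), cyp-13A5 (0.8849) and cutl-11 (0.9178). The fourth was low for clec-67 (0.85) and ZC123.1 (0.8802) and high for wrt-2 (0.9145), and the second was high for superoxide dismutases and catalases (0.9666). In N2 on E. coli the fourth replicate was low for hypodermis markers (0.8798, at 1.94 against 3.99 to 4.27) and for wrt-2 (0.9051), and the first was low for lipl-3 (0.8596). In no named gene, list or share of 180 examined did every library respond one way in skpo-1 and the opposite way in N2.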

How the results depend on the processing

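The count of 0 called genes was also 0 under limma-voom, median-of-ratios scaling, the authors' factors, the stricter filter and an adjusted P below 0.05 with no fold threshold. It was 56 with DESeq2, 55 with DESeq2 and ashr, 2 with no filter on low counts and 2 at an adjusted P below 0.1. With a library left out it ran from 0 to 24, highest without replicate 1 of N2 on E. faecalis, and it was 86 without that library and the second replicate of N2 on E. coli. The 1216 genes at an unadjusted P below 0.05 became 656 to 2438 with a library left out and 2861 without both. Their negative share of 62.3% ran from 49.7% (without replicate 3 of skpo-1 on E. coli) to 75.2% (without replicate 2 of N2 on E. coli). Genes with an interval within 2-fold numbered 4884 to 5339 across tools, scalings and filters. Of 3202 values of named genes under the alternatives, 8 reversed in sign, none of them called. vit-1 moved to 0.30, 0.03 and 0.65 (without replicate 1 of N2 on E. faecalis, without replicate 2 of N2 on E. coli, without both) beside -0.31 with all libraries, and its lowest value was -0.64. pie-1 moved to 0.038 and 0.063 in the last 2 of these fits beside -0.15, with a lowest value of -0.24. elt-7 moved to -0.16 and -0.32 beside 0.19, with a highest value of 0.35, and skn-1 to 0.039 without both beside -0.29. The cause was not tested. Of 19 same-numbered pairs of libraries 9 had a residual correlation above 0.1 (-0.527 to 0.245). These correlations go both ways, so they do not decide whether the replicate numbers pair the libraries. With a replicate block 0 genes were called, 880 had an unadjusted P below 0.05 and 4119 an interval within 2-fold. The block moved the negative genes at an unadjusted P below 0.05 to 9 of 28 major sperm proteins, 11 of 50 sperm-specific and spe genes, 5 of 148 collagens and 5 of 40 hedgehog-related genes. Shrinkage by ashr pulled list medians toward 0, with -0.25 for the major sperm proteins. The precision of single genes is set by 3 or 4 libraries per group, and for genes below 1 CPM by counting as well.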
